A study of Homo sapiens with 7 samples.

Results

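The cyclin-dependent kinase (CDK) inhibitors of the INK4 and CIP families were followed in RNA sequencing of 501Mel cells, a human melanoma line. Members were chosen by their gene symbol alone, and 6 of the 7 listed genes were analysed among the 21305 genes of the table. These were CDKN1B and CDKN1C of the CIP family and CDKN2A, CDKN2B, CDKN2C and CDKN2D of the INK4 family, whereas CDKN1A was not analysed here.

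The 7 libraries were total RNA of puromycin-selected pools, not single clones, that carried a short hairpin RNA in a lentiviral vector. The hairpin was directed against the bacterial gene lacZ in the control (shlacZ, n = 3), or against the long non-coding RNA GRASLND in the groups called sh4 (n = 2) and sh8 (n = 2). All libraries, the control included, came from cells in which doxycycline had switched the hairpin on. The labels do not say whether replicates were separate cultures, so p-values measure the spread between these libraries, which may be technical. The study asked what GRASLND knockdown changes in melanoma cells, and the levels below show how the brakes of the cell cycle stood under each hairpin.

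CDK inhibitors are small proteins that hold the cell cycle before DNA replication. INK4 proteins bind CDK4 and CDK6 and keep them from D-type cyclins, whereas CIP proteins bind whole cyclin-CDK complexes and mainly block CDK2. Free of these kinases, the retinoblastoma protein keeps E2F factors silent. In the melanocyte lineage the INK4 genes are best known for CDKN2A, whose loss is a classic step of melanoma and whose inherited variants predispose families to it.

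The normalized count of a gene is its read count divided by 1 size factor per library. Depth ranged from 13337317 to 22855232 reads per library, and 20303 to 20771 genes had at least 1 read. Replicates differed by more than counting noise, with the first shlacZ library farther from the other shlacZ libraries (mean chi-square per gene 28.5 and 27.8) than these from each other (8.64). GRASLND itself had 309, 329.9 and 289.7 normalized counts in the shlacZ libraries, 175 and 131 under sh4, and 227 and 163 under sh8. In limma, GRASLND changed by -0.85 on the log2 scale for the pooled hairpins (adjusted p 0.0402), by -1.02 for sh4 (0.00662) and by -0.68 for sh8 (0.110). The pooled call was kept on leaving out the first sh8 library, and lost on leaving out any other (adjusted p 0.0636 to 0.182). Under sh4 it was 0.0772 without the second sh4 library.

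Melanocytic markers were measured for 8 of 8 genes, with a summed normalized count of 135855 to 146631 in the control, 52282 to 60068 under sh4 and 101817 to 104837 under sh8. Of the fibroblast markers 2 of 6 had a value, with a sum of at most 19.4 in any library, and of the endothelial markers 0 of 4 had one. Of the keratinocyte markers 2 of 6 had a value, with a sum of 146 to 215. Of the immune markers 2 of 6 had a value, and their sum was 914 to 933 under sh4, against 498 to 675 in the control and 573 to 678 under sh8. In bulk RNA, fewer cells of a type and less RNA per cell cannot be told apart, and the part of these shifts in the results below was not tested.

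All 6 inhibitor genes were detected in every library, with 10 to 2162 reads per gene and library, so none was near zero throughout. The lowest was CDKN1C, with 10 to 26 reads in the control libraries. To compare levels between genes, normalized counts were divided by the merged exon length in kilobases. In the control, CDKN2A stood highest at 391 ± 70.7 normalized counts per kilobase (SD, n = 3) and CDKN1C lowest at 6.65 ± 3.63. Between them lay CDKN1B (105 ± 4.59), CDKN2C (99.4 ± 9.57), CDKN2B (37.2 ± 16.0) and CDKN2D (21.4 ± 3.92). The ranges of CDKN1B and CDKN2C overlapped, so these neighbours in the order did not differ beyond their spread. CDKN2D at 17.1 to 24.9 lay under CDKN2B at 25.3 to 55.5 by a narrow gap. CDKN2A was the highest in all 7 libraries. Dividing by the length of the canonical transcript instead, an alternative chosen after seeing the data, gave the same order in the control.

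Below CDKN2A, the order under sh4 was not that of the control. There CDKN2C came next at 134 ± 1.63 normalized counts per kilobase (SD, n = 2), followed by CDKN2B at 104 ± 21.8 and CDKN1B at 84.7 ± 3.28. The lower sh4 value of CDKN2B, 88.7, was close to the higher one of CDKN1B, 87.0. Under sh8 the sequence was CDKN2C (146 ± 22.6), CDKN1B (120.1 ± 22.9) and CDKN2B (59.8 ± 19.3), with the ranges of CDKN2C and CDKN1B overlapping. With the canonical transcript length sh8 had the order of the control, CDKN1B (461 ± 87.7) standing before CDKN2C (442 ± 68.5). CDKN2D and CDKN1C, the lowest pair, overlapped each other under either hairpin, unlike in the control. The place of CDKN2B above CDKN1B under sh4 depended on the length used, since with the canonical transcript CDKN2B was the fourth in all 7 libraries.

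**Figure D1:**
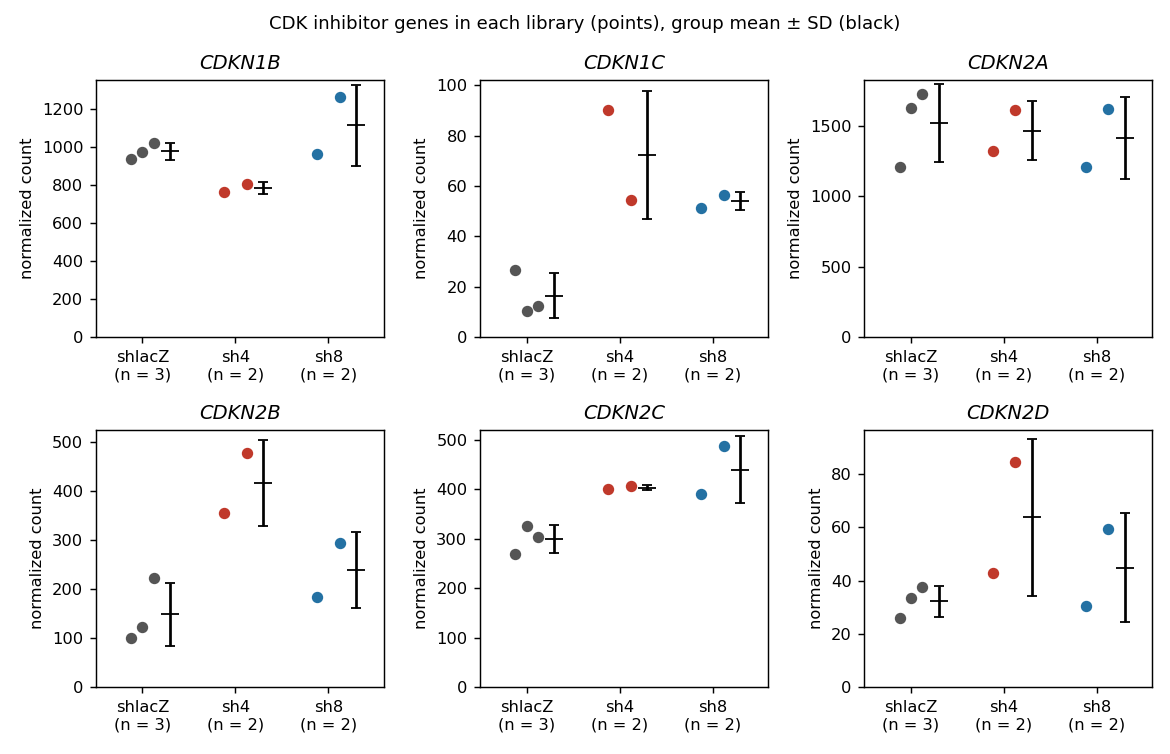
Normalized count (linear axis from 0) of each analysed inhibitor gene in each library, with 1 point per library for shlacZ (n = 3), sh4 (n = 2) and sh8 (n = 2) and black bars for the group mean ± SD. CDKN1C lies at 10.5 to 26.8 in the control and at 51.4 or more in every knockdown library, whereas the points of CDKN2A overlap between all groups.

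Of the CIP family, CDKN1C changed most. It encodes p57, a CIP inhibitor that is imprinted, expressed from the maternal chromosome and known for cell cycle exit during development. CDKN1C (ENSG00000129757, hg38 chromosome 11, 2883213 to 2885775, minus strand) had 26.8, 10.5 and 12.2 normalized counts in the shlacZ libraries, 90.3 and 54.5 under sh4, and 51.4 and 56.4 under sh8. All 4 knockdown libraries lay above all 3 control libraries, an order seen in 10.2% of all tested genes, and the first shlacZ library was the highest of its group. The mean rose from 16.5 ± 8.99 (SD, n = 3) to 63.2 ± 18.2 (SD, n = 4), a ratio of 3.83.

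On the log2(normalized count + 1) scale the pooled change of CDKN1C was 1.95 (SE 0.37, 95% interval 1.13 to 2.77, limma adjusted p 0.0233). Only 0.610% of the 15420 tested genes had a higher log2 fold change in that comparison. CDKN1C was the only 1 of the 6 members past an adjusted p under 0.05 when both hairpins were pooled, where 4.61% of all tested genes passed. It was also past an absolute log2 fold change of 1, beside 1.99% of all tested genes, and 3 members had an unadjusted p under 0.05. The pooled call of CDKN1C was lost without the second shlacZ library (adjusted p 0.123), the third shlacZ library (0.0941) or the first sh4 library (0.0703).

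Each hairpin alone gave CDKN1C a change of the same direction. Under sh4 the log2 fold change was 2.14 (SE 0.43, adjusted p 0.00649), with a mean of 72.4 ± 25.4 (SD, n = 2). Without the first sh4 library, the remaining sh4 library being assumed to vary like the other groups, the adjusted p was 0.0870. For sh8 it was 1.76 (SE 0.43, adjusted p 0.0594), which did not pass, with a mean of 53.9 ± 3.55 (SD, n = 2). The sh8 value passed without the first shlacZ library (adjusted p 0.00650). Between the hairpins CDKN1C differed by 0.38 (95% interval -0.67 to 1.42, adjusted p 0.702), too wide to say that the hairpins acted alike. CDKN1C had at most 80 reads in a library, and these low counts limit its precision.

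CDKN1B encodes p27, the CIP inhibitor that keeps resting cells from entering S phase and that is controlled mostly by protein turnover. CDKN1B (ENSG00000111276, chromosome 12, 12685498 to 12722369, plus strand) had 935, 969.9 and 1019.6 normalized counts in the shlacZ libraries, 762 and 805 under sh4, and 962 and 1261 under sh8. Both sh4 libraries lay below all others, and the sh8 libraries spread on either side of the control mean. The pooled log2 fold change was -0.07 (95% interval -0.45 to 0.31, adjusted p 0.841). Under sh4 it was -0.31 (SE 0.14, adjusted p 0.139), and under sh8 0.18 (SE 0.14, adjusted p 0.545). Between the hairpins CDKN1B differed by -0.49 (SE 0.15, 95% interval -0.84 to -0.15, adjusted p 0.0877), which did not pass. CDKN1B overlaps GPR19 on the opposite strand, and whether the counting used strand is not given in the sources used here, so reads of the overlap cannot be told apart.

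The INK4 family held a lone further call, CDKN2B under sh4. CDKN2B encodes p15, an inhibitor of CDK4 and CDK6 best known as a gene that TGF-beta signalling switches on. CDKN2B (ENSG00000147883, chromosome 9, 22002903 to 22009305, minus strand) had 101, 124 and 222 normalized counts in the shlacZ libraries. It had 355 and 478 under sh4, and 185 and 294 under sh8. Both sh4 libraries lay above all control and sh8 libraries, whereas the first sh8 library lay below the third shlacZ library.

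Means of CDKN2B with their SDs were 149 ± 64.2 for shlacZ (n = 3), 416 ± 87.0 for sh4 (n = 2) and 239 ± 77.4 for sh8 (n = 2). Under sh4 it rose by a ratio of 2.80 (log2 fold change 1.54, SE 0.33, limma adjusted p 0.00882). With CDKN1C this made 2 of 6 members past the threshold under sh4, beside 22.5% of all tested genes, and both were also past an absolute log2 fold change of 1, beside 8.16% of all tested genes. Without the second sh4 library the adjusted p of CDKN2B was 0.0952. Pooled over both hairpins the log2 fold change was 1.13 (SE 0.34, adjusted p 0.0827), which passed without the first sh8 library (adjusted p 0.0290). Under sh8 alone it was 0.72 (95% interval -0.01 to 1.46, adjusted p 0.275). Between the hairpins CDKN2B differed by 0.82 (95% interval 0.02 to 1.62, adjusted p 0.213), so the hairpins were not shown to differ.

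CDKN2A, the neighbour of CDKN2B, encodes p16 from one first exon and the p53-stabilising protein ARF from another, and the counts pool the transcripts of both. CDKN2A (ENSG00000147889, chromosome 9, 21967752 to 21995301, minus strand) had 1208, 1625 and 1726 normalized counts in the shlacZ libraries, 1320.2 and 1614 under sh4, and 1206 and 1621 under sh8. The first library of each group was its lowest, and the 3 groups overlapped over nearly their whole range. The pooled log2 fold change was -0.07 (95% interval -0.43 to 0.29, adjusted p 0.819), with -0.04 for sh4 (adjusted p 0.904) and -0.10 for sh8 (adjusted p 0.818). The 95% intervals of these 3 values lay between -0.52 and 0.38.

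CDKN2B relative to CDKN2A therefore moved with CDKN2B. Per kilobase of merged exons, CDKN2B stood at 8.14%, 7.39% and 12.5% of the CDKN2A level in the shlacZ libraries. It stood at 26.1% and 28.8% under sh4, and at 14.9% and 17.6% under sh8, so the 3 groups did not overlap. CDKN2B itself did overlap the control under sh8, and both genes were lowest in the first library of each group. How often ratios of other gene pairs part in this way was not tested. CDKN2A made up 56.1% to 60.7% of the summed level of the 6 genes per kilobase in the control and 48.0% to 49.8% in the knockdown libraries. With the canonical transcript length those shares were 63.2% to 68.3% and 58.1% to 63.3%, and the groups then overlapped.

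The start regions of these genes are shown because CDKN2B changed under sh4 while CDKN2A beside it did not pass. Each run is the 250 bases before an annotated start from RefSeq on GRCh38.p14, read on the minus strand, with the GC box (GGGCGG, or CCGCCC on the other strand) in capitals. The windows lie at chr9:22009306-22009555 for CDKN2B, at chr9:21995325-21995574 for the upstream CDKN2A start and at chr9:21974858-21975107 for the downstream CDKN2A start.
CDKN2B: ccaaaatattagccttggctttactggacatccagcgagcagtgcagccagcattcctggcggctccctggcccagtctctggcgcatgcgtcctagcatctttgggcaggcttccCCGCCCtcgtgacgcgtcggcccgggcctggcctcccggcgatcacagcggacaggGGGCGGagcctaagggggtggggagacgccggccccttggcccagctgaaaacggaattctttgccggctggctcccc
CDKN2A upstream start: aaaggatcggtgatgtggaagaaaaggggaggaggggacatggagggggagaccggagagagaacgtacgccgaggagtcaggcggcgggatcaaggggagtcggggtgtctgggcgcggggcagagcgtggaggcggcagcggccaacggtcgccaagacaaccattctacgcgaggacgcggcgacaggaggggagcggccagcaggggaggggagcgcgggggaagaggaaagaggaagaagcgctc
CDKN2A downstream start: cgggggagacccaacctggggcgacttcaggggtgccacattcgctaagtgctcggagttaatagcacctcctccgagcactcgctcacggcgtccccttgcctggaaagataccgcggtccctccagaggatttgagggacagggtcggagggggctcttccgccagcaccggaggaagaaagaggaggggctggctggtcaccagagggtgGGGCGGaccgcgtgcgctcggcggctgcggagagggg
The CDKN2B window held 2 GC boxes, the upstream CDKN2A window 0 and the downstream CDKN2A window 1, at a GC content of 66.4%, 66.8% and 66.8%. A GC box is common, being present in 42.6% of the 35116 start windows of all genes, whose median GC content was 58%. Of the 8 windows of 5 members 6 held a GC box, and CDKN1C had no window. The E-box CACGTG, which is its own reverse complement, was in 6.34% of all windows and in none of the 3 shown. Windows of CDKN2C, not shown, did hold it. The palindrome GTCTAGAC, bound by SMAD proteins, was in 0.182% of all windows and the forkhead motif TGTTTAC, searched on both strands, in 2.98%, and neither was in a member's window. These are letter matches, not measured binding.

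CDKN2C encodes p18, an INK4 protein with a role in terminal differentiation. CDKN2C (ENSG00000123080, chromosome 1, 50960745 to 50974634, plus strand) had 269, 327 and 304 normalized counts in the shlacZ libraries, 399.8 and 407 under sh4, and 391 and 488 under sh8. Every knockdown library lay above every control library, by a smaller step than for CDKN1C. The pooled log2 fold change was 0.49 (SE 0.14, 95% interval 0.17 to 0.81, limma adjusted p 0.0811), which did not pass. For sh4 alone CDKN2C had 0.43 (SE 0.16, adjusted p 0.0821), and for sh8 alone 0.55 (SE 0.16, adjusted p 0.104). The hairpins differed by -0.12 (95% interval -0.51 to 0.28, adjusted p 0.762).

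CDKN2D encodes p19, the INK4 protein whose RNA normally peaks in S phase. CDKN2D (ENSG00000129355, chromosome 19, 10566460 to 10569059, minus strand) had 25.8, 33.5 and 37.4 normalized counts in the shlacZ libraries, 42.9 and 84.3 under sh4, and 30.3 and 59.2 under sh8. The second library of either hairpin stood well above the first, and the sh8 libraries overlapped the control. The pooled log2 fold change was 0.65 (95% interval -0.14 to 1.43, adjusted p 0.290). For sh4 alone it was 0.90 (adjusted p 0.134), and for sh8 0.40 (0.637). The hairpins differed by 0.50 (95% interval -0.48 to 1.47, adjusted p 0.562). CDKN2D had 23 to 113 reads per library, and leaving out 1 library moved its sh4 value between 0.42 and 1.38.

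**Figure D2:**
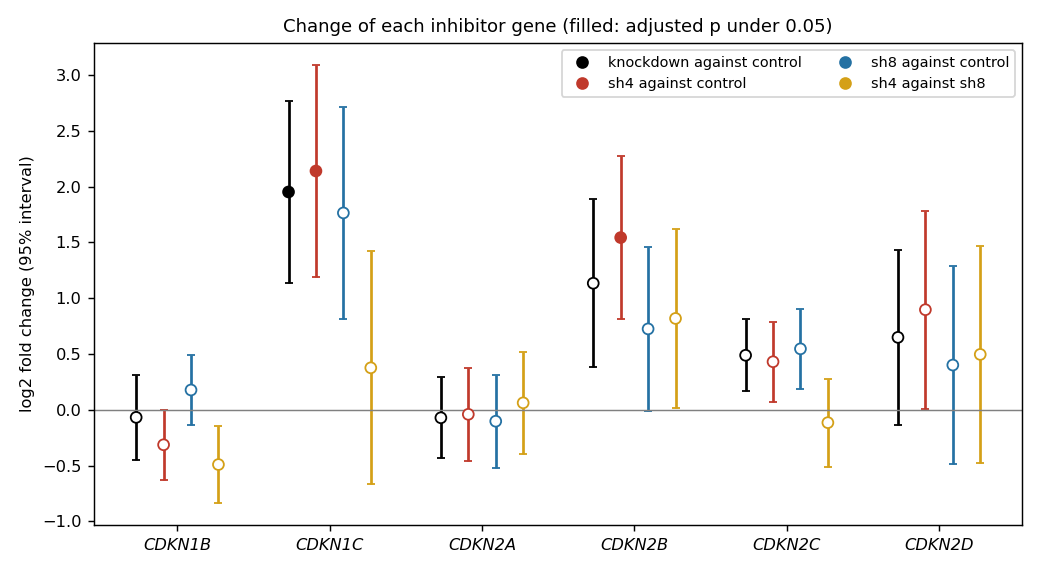
Log2 fold change (vertical axis) of each inhibitor gene with its 95% interval in knockdown against control, sh4 against control, sh8 against control and sh4 against sh8, where filled points passed a limma adjusted p under 0.05. The filled points are CDKN1C pooled (1.95) and under sh4 (2.14) and CDKN2B under sh4 (1.54), and every interval of CDKN2A spans 0.

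Under sh8 alone 0 of 6 members passed in limma, beside 2.92% of all tested genes, with 2 at an unadjusted p under 0.05 and 0 in limma-voom on the recovered reads. Between sh4 and sh8 0 of 6 passed in limma, beside 7% of all tested genes, with 2 at an unadjusted p under 0.05 and 0 in limma-voom. By order alone, CDKN1C and CDKN2C had all knockdown libraries above all control libraries, where 10.2% of all tested genes did. Under sh4, CDKN1C, CDKN2B, CDKN2C and CDKN2D lay wholly above the control, beside 25.1% of all tested genes, and CDKN1B wholly below, beside 25.6%. Under sh8, CDKN1C and CDKN2C lay wholly above it, beside 16.5%. Between the hairpins CDKN2B lay wholly higher under sh4, beside 26.6%, and CDKN1B wholly lower, beside 27.6%. The median log2 fold change of the 4 INK4 genes was 0.57 pooled, 0.66 under sh4 and 0.47 under sh8, beside -0.01 over all tested genes in each of these comparisons. That of CDKN1B and CDKN1C is the mean of a gene near 0 and a gene near 2 and describes neither.

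The genes with the pattern most like that of CDKN1C over the 7 libraries were TSHZ2, ABTB1 and ENSG00000283563 out of 12050 genes whose mean reached 50. Their mean-centred log2 profiles differed from that of CDKN1C by a root mean square of 0.19, 0.24 and 0.24, where CDKN1C itself spread by 1.06 about its mean. TSHZ2, a zinc finger gene, had 297, 176 and 169.6 normalized counts in the control and 540.4 to 1003 in the knockdown libraries, so it too was highest in the first shlacZ library of its group. For CDKN2B they were SLC2A3, DLX2 and RAB4B, at 0.13, 0.17 and 0.19 against a spread of 0.74. SLC2A3, which encodes a glucose transporter, had 381, 504 and 823 in the control, 1703 and 2223 under sh4, and 738 and 1246 under sh8.

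The genes next to CDKN2A and CDKN2B at 9p21 were followed beside them. Of 8 neighbours listed 5 were tested, and pooled 0 of them passed in limma, with 2 at an unadjusted p under 0.05 and 0 in limma-voom. The antisense RNA CDKN2B-AS1, also called ANRIL, lies on the other strand (chromosome 9, 21994139 to 22128103). It runs across the whole of CDKN2B, but of CDKN2A it overlaps only the end nearest CDKN2B, from 21994139 to 21995301. CDKN2B-AS1 had 872, 726 and 552 normalized counts in the shlacZ libraries, 801 and 800.1 under sh4, and 989 and 844 under sh8. For sh4 the log2 fold change of CDKN2B-AS1 was 0.18 (adjusted p 0.516), and for sh8 0.37 (adjusted p 0.316). Since strand use in counting is not given, reads in the overlap of CDKN2B-AS1 with CDKN2A and CDKN2B cannot be told apart.

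Under sh4, MTAP, which encodes a methionine salvage enzyme and is often deleted together with CDKN2A in tumours, fell from 2047 ± 47.1 to 1443 ± 128 (log2 fold change -0.51, SE 0.11, adjusted p 0.0105). KLHL9 rose by 0.39 (adjusted p 0.0492). MTAP was past the threshold without any library but the second sh4 library (adjusted p 0.0936), whereas KLHL9 was lost on leaving out any 1 of 6 libraries (adjusted p 0.0742 to 0.273) and kept without the first shlacZ library. MLLT3 (0.10) and FOCAD (0.23) did not pass under sh4, and DMRTA1 and ELAVL2 lay under the minimum mean.

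**Figure D3:**
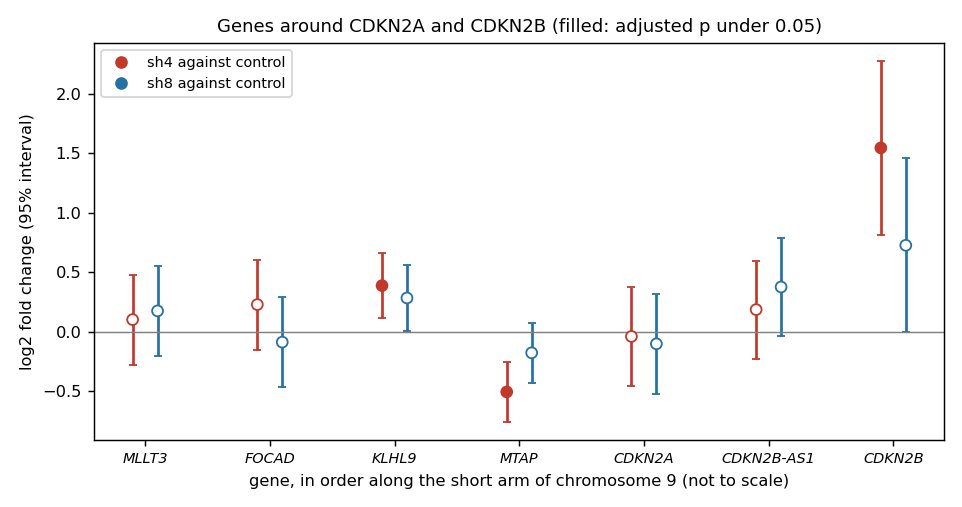
Log2 fold change with its 95% interval (vertical axis) under sh4 and sh8 against control for the 7 tested genes around CDKN2A and CDKN2B, in chromosomal order along the horizontal axis but not to scale, where filled points passed a limma adjusted p under 0.05. CDKN2B stands at 1.54 under sh4, and the other genes lie between -0.51 and 0.39 under either hairpin.

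Around CDKN1C at 11p15, 5 of 8 listed neighbours were tested and 0 passed in limma in any of the 4 comparisons, with 2 pooled and at most 1 in each other comparison at an unadjusted p under 0.05. In limma-voom 1 passed under sh4 and 0 in the other comparisons. KCNQ1OT1, the antisense RNA of the imprinted domain that holds CDKN1C, had 9459, 5669 and 5390.1 normalized counts in the shlacZ libraries and 7616 to 11713 in the knockdown libraries, with the groups overlapping (pooled log2 fold change 0.51, adjusted p 0.188). SLC22A18 had 1.03 under sh4 (adjusted p 0.0579). PHLDA2 (-0.05), NAP1L4 (-0.15) and CARS1 (-0.10) had pooled values near 0. H19 and IGF2, the imprinted pair nearby, had a mean of at most 3.35 normalized counts in any group and lay under the minimum mean.

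The kinases that the inhibitors bind were lower under sh4 throughout. All 4 fell under sh4, where 22.5% of all tested genes passed, with 2 of them lost without either sh4 library. Pooled, 1 of 4 fell, beside 4.61% of all tested genes, and under sh8 1 fell and 1 rose, beside 2.92%. CDK2, the main target of CIP proteins, had 14681, 13195 and 12973 normalized counts in the shlacZ libraries, 7297 and 6363 under sh4, and 8640.3 and 8670.4 under sh8. All knockdown libraries lay well below the control. Under sh4 alone 25.6% of all tested genes lay wholly below it, and the share for both hairpins together is not given here. Genes that overlap the kinases were not looked up, so reads shared with a gene on the other strand were not assessed for CDK2. The log2 fold change of CDK2 was -0.82 pooled (SE 0.14, adjusted p 0.0169), -0.997 for sh4 (adjusted p 0.000485) and -0.65 for sh8 (adjusted p 0.0191). Leaving out shlacZ library 2 (0.0860) or 3 (0.0662) ended the pooled call, and the sh8 call was lost without either of these (0.0621 and 0.0545) or either sh8 library (0.137 and 0.160).

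CDK6, a target of INK4 proteins, went opposite ways. It had 2514, 2269.8 and 2025 normalized counts in the shlacZ libraries, 1567 and 1527 under sh4, and 4062 and 3833 under sh8, with no overlap between the groups. Of all tested genes 25.6% lay wholly below the control under sh4 and 16.5% wholly above it under sh8. Between the hairpins 27.6% lay wholly lower under sh4. CDK6 fell by 0.55 on the log2 scale under sh4 (adjusted p 0.0109) and rose by 0.80 under sh8 (adjusted p 0.00954), a difference of -1.35 (SE 0.13, adjusted p 0.00113). The difference passed without any 1 library, whereas the sh4 call was lost without either sh4 library (0.0623 and 0.0764) and the sh8 call without either sh8 library (0.0962 and 0.0864). CDK4, the other INK4 target, had -0.70 under sh4 (adjusted p 0.0401), a call lost on leaving out any 1 of 6 libraries (adjusted p 0.0574 to 0.242) and kept without the first shlacZ library. CDK1, the mitotic kinase, had -0.68 under sh4 (adjusted p 0.00416).

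**Figure D4:**
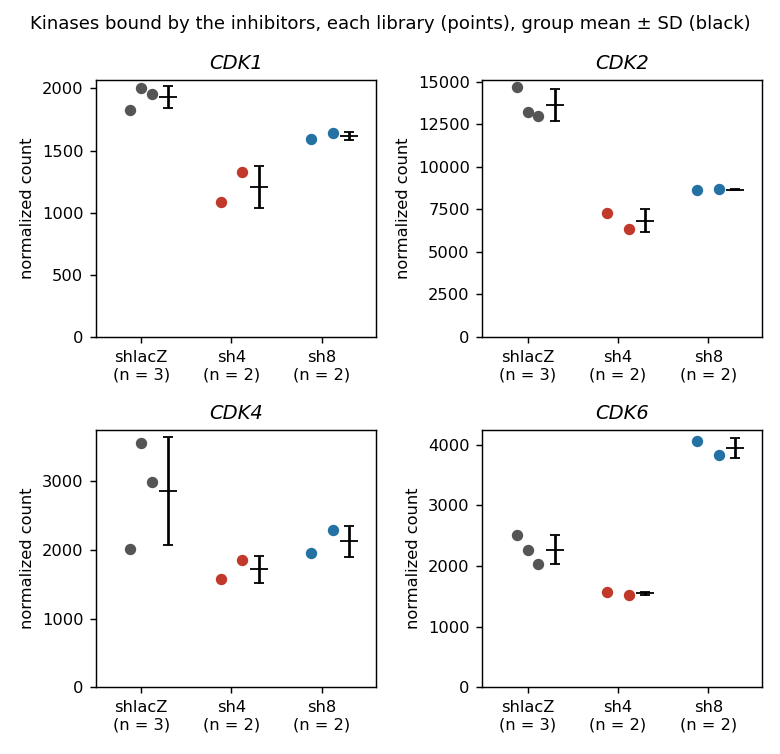
Normalized count (linear axis from 0) of CDK1, CDK2, CDK4 and CDK6 in each library, with 1 point per library for shlacZ (n = 3), sh4 (n = 2) and sh8 (n = 2) and black bars for the group mean ± SD. CDK2 lies at 12973 to 14681 in the control and at 8670.4 or less in every knockdown library, and CDK6 is lower than the control under sh4 and higher under sh8.

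The summed level of the 6 inhibitor genes overlapped between the groups, whereas that of the 4 kinases did not. The inhibitor sum was 554, 689 and 740 normalized counts per kilobase in the shlacZ libraries, 708 and 835 under sh4, and 631 and 851 under sh8. The kinase sum was 4971 to 5242 in the control, 2702 to 2791 under sh4 and 3597 to 3701 under sh8. The ratio of the inhibitor sum to the kinase sum thus differed between groups mainly through the kinase sum. Of the 4 kinases CDK2 had by far the highest control mean, 13617 normalized counts. The others had 1930 (CDK1), 2852 (CDK4) and 2270 (CDK6). Reads that CDK2 may share with a gene on the other strand were not assessed, and this limit holds for the kinase sum and the ratio. CDK6 rose under sh8, so the kinases did not all move together. The ratio was 10.9%, 13.1% and 14.9% in the shlacZ libraries, 25.4% and 30.9% under sh4, and 17.5% and 23.0% under sh8. Control and knockdown libraries did not overlap in it, and how often sums of other genes would part in this way was not tested. With the canonical transcript length the ratio was 22.2% to 30.0% in the control and 34.8% to 55.8% in the knockdown libraries. These are RNA levels, and no protein was measured in these libraries.

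Of the cyclins, 7 of 9 listed genes were tested, and 2 fell under sh4, beside 22.5% of all tested genes, and 1 under sh8, beside 2.92%. CCNE1 and CCNA2, the partners of CDK2, fell under sh4, by 0.96 (adjusted p 0.00456) and 0.56 (adjusted p 0.0382) on the log2 scale. CCNE1 was lost without the first sh4 library (0.0528), and CCNA2 without shlacZ library 2 (0.117) or 3 (0.0969), the first sh4 library (0.315) or either sh8 library (0.0596 and 0.0600). CCND1, the partner of CDK4 and CDK6 and named after its values were seen, had 12243, 13455 and 17050 normalized counts in the shlacZ libraries, 12731 and 13476 under sh4, and 6718 and 8562 under sh8. Both sh8 libraries lay below all others. Between the hairpins 26.6% of all tested genes lay wholly higher under sh4, and the share wholly below the control under sh8 is not given here. CCND1 fell by 0.90 on the log2 scale under sh8 (adjusted p 0.0195), had -0.11 under sh4 (adjusted p 0.684), and was higher under sh4 than sh8 by 0.79 (adjusted p 0.0271). Its sh8 call was lost without shlacZ library 2 (0.0594) or 3 (0.0523) or either sh8 library (0.173 and 0.0772). Of the 3 retinoblastoma family genes RB1 rose under sh4 (0.45, adjusted p 0.0247), a call lost without shlacZ library 2 (0.0722) or 3 (0.0717) or the second sh4 library (0.181).

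Factors known to act on these inhibitor genes were followed next, and whether their changes relate to those of the inhibitor genes was not tested. The TGF-beta list was taken for CDKN2B. Of 12 tested genes 1 rose pooled, beside 4.61% of all tested genes that passed, and 4 rose and 1 fell under sh4, beside 22.5%. The number that passed under sh4 was 1 without the second sh4 library and 3 without the first sh4 or the third shlacZ library. Pooled it was 0 without shlacZ library 2 or 3 and 2 without the first sh8 library. SMAD3, a transducer of TGF-beta signals, rose by 1.60 for sh4 (adjusted p 0.000241) and by 0.94 for sh8 (adjusted p 0.0172). The ligand gene TGFB1 (0.52, adjusted p 0.0439) and TGFBI (1.76, adjusted p 0.0302), named after their values were seen, also rose under sh4. Pooled, SMAD3 rose by 1.27 (adjusted p 0.0168), a call lost without shlacZ library 2 (0.0901) or 3 (0.0611), and its sh8 call was lost without the second shlacZ (0.0610) or the second sh8 (0.183) library. The receptor gene TGFBR2 rose by 1.23 under sh4 (adjusted p 0.00350, and 0.0522 without the second sh4 library). The ligand gene TGFB2, at a low level, fell by 2.36 on the log2 scale under sh4 (adjusted p 0.0117, and 0.0887 without the second sh4 library).

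FOXO factors, known activators of CDKN1B, and their other target genes had a pooled log2 fold change above 0 in 11 of 11 cases (median 0.60), where 49.4% of all tested genes did (median -0.01). Pooled 1 of them passed, beside 4.61% of all tested genes, and 4 rose under sh4, beside 22.5%. The pooled number was 4 without the first sh8 library, 2 without the first shlacZ library and 0 without any other, and the sh4 number was 2 without the first sh4 library. PIK3IP1 rose by 1.85 pooled (adjusted p 0.0353), a call lost on leaving out any 1 of 5 libraries (0.0572 to 0.133) and kept without the first shlacZ or the first sh8 library, and by 2.16 under sh4 (0.00822, and 0.110 without the first sh4 library). FOXO1 (1.62, adjusted p 0.00173) and BCL6 (1.40, adjusted p 0.00426) rose under sh4. CDKN1B itself had -0.07 pooled, -0.31 under sh4 and 0.18 under sh8, none of which passed, and a link to the FOXO genes was not tested.

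Of p53 and its target genes 21 were tested, and pooled 0 passed in limma, with 4 at an unadjusted p under 0.05 and 0 in limma-voom. Under sh4 2 of 21 passed, beside 22.5% of all tested genes. These were TP53I3, at a low level (2.71, adjusted p 0.0184), and ZMAT3 (0.52, adjusted p 0.0247), which rose. Under sh8 1 passed, beside 2.92%. It was AEN, a nuclease gene named after its values were seen, which fell by 0.74 on the log2 scale (adjusted p 0.0370), a call lost on leaving out any 1 of 6 libraries (0.0672 to 0.226) and kept without the first shlacZ library. The number that passed under sh4 was 5 without the first shlacZ library. TP53I3 was lost without either sh4 library (0.0966 and 0.123), and ZMAT3 without shlacZ library 2 (0.0667) or 3 (0.0903) or the second sh4 library (0.203).

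Of 12 ubiquitin ligase genes that act on the inhibitor proteins 3 fell under sh4, a share near the 22.5% of all tested genes that passed. The number was 5 without the first shlacZ library and 1 without the third shlacZ library or either sh4 library. SKP2, which marks p27 for breakdown, fell from 3364 ± 408 normalized counts to 1562 ± 96.6 under sh4 (log2 fold change -1.10, SE 0.13, adjusted p 0.000489) and had 2946 ± 97.4 under sh8. DTL (-0.48, adjusted p 0.0153) was lost without the third shlacZ library (0.0505) or either sh4 library (0.105 and 0.0657). CUL4A (-0.41, adjusted p 0.0415) was lost on leaving out any 1 of 6 libraries (0.0644 to 0.170) and kept without the first shlacZ library.

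Of 12 transcriptional repressors of INK4 or CIP genes, 2 rose and 2 fell under sh4, beside 22.5% of all tested genes that passed, and 3 to 5 passed on leaving out 1 library. MYC, which holds CDKN2B down through a partner protein, fell from 4560.2 ± 783 to 1589 ± 214 under sh4 (log2 fold change -1.51, SE 0.16, adjusted p 0.000287) and had 4073 ± 306 under sh8. RNF2, a Polycomb subunit of the complex that silences the INK4 locus, fell by 0.70 (adjusted p 0.00367), and TBX3, a repressor of the same locus, rose by 0.89 (adjusted p 0.00175) under sh4. CBX7, another repressor of the list and named after its value was seen, rose by 0.92 under sh4 (adjusted p 0.0321). Of the 4 other genes named as CDK inhibitors or CDK associated, CDKN3 among them, 0 passed in any comparison in limma or in limma-voom, with 1 at an unadjusted p under 0.05 pooled and 1 under sh4.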

How the data were processed

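RNA was depleted of ribosomal RNA and made into stranded, paired-end libraries. According to the methods, adapters were trimmed with Cutadapt, STAR mapped the reads to hg38, Salmon estimated counts per gene, and versions were not given in the sources used here. The authors deposited normalized counts, that is, counts divided by a DESeq2 size factor per library, which are not raw counts. In each library 100% of values were whole multiples of 1 read within 0.1 read, and depth was taken from those reads. No gene had fewer than 10 reads summed over the libraries. 0 columns belonged to other samples. Coordinates, strand and exon lengths came from GENCODE release 44 on hg38, which held 21281 (99.9%) of the gene identifiers.

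limma 3.58.1 (R 4.3.3) with the variance trend was applied to log2(normalized count + 1) for 15420 genes whose mean over all libraries reached 10, a scale that understates changes of low genes. Benjamini-Hochberg adjustment ran over all of these genes, and a gene passed at an adjusted p under 0.05. Both hairpins together were compared with shlacZ in a fit with 2 levels, and the other comparisons came from a fit of 3 groups with 1 estimate of the spread. The procedure was tested on simulated data. Size factors would scale away any change common to the bulk of transcripts.

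The members, the gene lists and the rule for naming genes were chosen with earlier results of these data known, so no list is independent evidence. 1 listed gene is not reported here and was left out of its list. Named were all members, GRASLND, the 4 kinases, the measured neighbours, up to 3 genes of each other list with the lowest p among those that passed pooled or else under sh4, and the 3 genes nearest in profile to each member that passed. Other settings tried were pseudocounts of 0.5 and 10, a minimum mean of 50 or none, TMM, upper quartile and quantile scaling, no variance trend, a replicate block, limma-voom on the recovered reads, fits of only the groups compared or of each hairpin averaged, and fits without 1 library at a time. No interval was computed from counting error alone.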

Additional observations from a re-analysis of the deposited data

Results flagged for a closer look

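Among the 4 knockdown libraries, CDKN1C in the first sh4 library stood apart at 90.3 normalized counts, with a gap to its nearest neighbour of 0.871 of the whole range, over the 95% critical value of Dixon's test for 4 samples. For CDKN2C the second sh8 library stood apart in the same way at 488, with a gap of 0.841 of the range. In all 7 genes were tested, and chance flags about 1 in 20 groups drawn from 1 population. These 4 libraries mix 2 hairpins, so that rate may not hold here. An odd library cannot be told apart from a difference between the hairpins. Without the first sh4 library the pooled log2 fold change of CDKN1C was 1.77 (adjusted p 0.0703).

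No member differed between sh4 and sh8 past an adjusted p under 0.05, but 11 of the 96 tested genes listed around them did, beside 7% of all tested genes. CDK6 had the lower level under sh4 by -1.35 (log2 scale, limma, adjusted p 0.00113), and MYC by -1.36 (adjusted p 0.00277). SKP2 differed by -0.92 (adjusted p 0.00589) and RNF2 by -0.69 (adjusted p 0.0152). RB1 was higher under sh4 by 0.64 (adjusted p 0.0185) and ZMAT3 by 0.80 (adjusted p 0.0147). FOXO1 was higher by 1.14 (adjusted p 0.0339) and TBX3 by 0.67 (adjusted p 0.0250). The other 3, named after their values were seen, were higher under sh4, CCND1 by 0.79 (adjusted p 0.0271), MDM2 by 0.79 (adjusted p 0.0143) and TNFRSF10B by 0.59 (adjusted p 0.0424). On leaving out single libraries CDK6 and MYC passed in all 7 cases. SKP2 was lost without the second sh4 (0.0523) or the first sh8 (0.0605) library, and RNF2 without either sh4 library (0.0953 and 0.0740) or either sh8 library (0.0987 and 0.0906). RB1, ZMAT3 and TBX3 were lost without the second sh4 library (0.163, 0.142 and 0.202), the first sh8 library (0.159, 0.0945 and 0.152) or the second sh8 library (0.0510, 0.0865 and 0.110), and FOXO1 without either sh4 library (0.102 and 0.233) or the first sh8 library (0.233). CCND1 was lost without either sh4 library (0.106 and 0.185) or either sh8 library (0.215 and 0.0530), MDM2 without the second sh4 library (0.139) or either sh8 library (0.0527 and 0.110), and TNFRSF10B on leaving out any library (0.0630 to 0.262) but the first shlacZ library.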

How the results depend on the processing

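Over all alternatives, 7 member values that had passed no longer did, and 8 passed that had not. Another 17 changed sign, and the rest kept their direction and their side of the threshold. Among those that changed sign was CDKN2D for sh8, with a log2 fold change of 0.40 in the main fit and -0.07 without the second sh8 library. The count of members that passed pooled was 1, and it was 0 with a minimum mean of 50 (CDKN1C then not being tested), 0 without the variance trend (CDKN1C adjusted p 0.0536) and 3 for the mean of both hairpins in the fit of 3 groups (CDKN2B 0.0212, CDKN2C 0.0356). Leaving out 1 library gave 0 to 2. For sh4 it was 2, with 1 at a minimum mean of 50 and 1 to 2 on leaving out 1 library. For sh8 it was 0, with 1 after quantile normalization (CDKN1C 0.0415) and 0 to 1 on leaving out 1 library. CDKN2C passed for sh4 with upper quartile scaling (0.0430). The log2 fold change of CDKN2A for sh4 was 0.0117 with upper quartile scaling (limma adjusted p 0.969) and 0.0301 with quantile normalization (0.916). Leaving out 1 library gave CDKN2A -0.23 to 0.0285 pooled, -0.20 to 0.10 for sh4, -0.32 to 0.11 for sh8 and -0.15 to 0.27 between the hairpins. It gave CDKN1B -0.22 to 0.0267 pooled and -0.0179 to 0.37 for sh8, CDKN2D -0.0701 to 0.87 for sh8 and CDKN2C -0.27 to 0.0427 between the hairpins. Over all genes, 711 passed pooled, against 138 without the variance trend, 2534 for the mean in the fit of 3 groups and 64 without the second shlacZ library. With upper quartile scaling 496 were higher and 258 lower pooled, against 393 and 318.

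Same-numbered libraries of different groups had correlations of their deviations from -0.08 to 0.34. These values cannot decide whether the replicate numbers pair the samples, since the deviations of 2 libraries in a group mirror each other. The sh4 and sh8 libraries thus gave 0.034 for both numbers. In a block by replicate number, shlacZ library 3 has no partner. The pooled log2 fold changes in the block fit equalled those without that library (CDKN1C 1.81, CDKN2A 0.0285). With the replicate number as a block, 0 members passed pooled (CDKN1C adjusted p 0.121) and 2 for sh4. For sh8 1 passed (CDKN2B adjusted p 0.0179), and between the hairpins 1 passed (CDKN2B adjusted p 0.0282). The log2 fold change of CDKN2A in that fit was 0.0285 pooled (limma adjusted p 0.932) and 0.0594 for sh4 (0.795). Over all genes, 42 passed pooled in that fit.

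With 2 libraries per hairpin and 10 to 26 control reads for CDKN1C, the size of its change is loosely bound.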
